A study of Mus musculus with 12 samples.

Results

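The cytochrome P450 genes (Cyp genes) were examined in RNA from whole mouse kidney at postnatal day 15. Members were the protein-coding genes named Cyp with a family number, a subfamily letter and a gene number, without the vitamin D enzymes Cyp24a1 and Cyp27b1, that had at least 10 counts in 3 or more libraries. Of 92 genes with such a name, 43 were members, and all 43 were among the 19890 genes tested, of 55487 in the deposited table. The choice used the level of a gene in any group and not the difference between groups. The 43 were not all well measured: 26 had at least 10 counts in all 12 libraries, and 4 (Cyp11a1, Cyp11b1, Cyp19a1 and Cyp2b10) just passed with 3 libraries. Just outside were 2 genes with 2 such libraries and a highest count of 23, and 5 genes with 1 such library. A further 42 genes reached 10 counts in no library, and 3 of them had no count at all.

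The 12 libraries formed 4 groups of 3. In the Cep120 line and in the Pkd1 line, animals whose sample titles read homo are called Cep120 KO and Pkd1 KO here, and those whose titles read het are the controls of that line, with WT as their genotype label. All 4 groups carry hox in their titles, and the series' design names Hoxb7, whose Cre driver acts in the ureteric bud and the collecting duct that grows from it, so most tubule cells that hold P450 enzymes lie outside the cells in which it acts. The Cep120 protein builds centrioles, and Pkd1 codes for polycystin-1 of the cilium. Strain, sex and the number of animals behind a library are not stated in the labels. P-values therefore measure the spread between these libraries, which may be technical in part.

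P450 enzymes hold a heme iron that splits oxygen and adds an oxygen atom to a lipid, steroid or foreign compound. Most sit in the endoplasmic reticulum and take electrons from P450 oxidoreductase (Por), and a few sit in mitochondria and take them from ferredoxin. In kidney, proximal tubule cells are known for enzymes that turn arachidonic acid into epoxides (Cyp2c, Cyp2j) or hydroxylate fatty acids at the end of the chain (Cyp4a, Cyp4f), products that act on vessel tone and salt transport.

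Libraries held 23070688 to 31837958 counts. Whole-kidney RNA of the targeted genes was not lower in the knockout libraries: Cep120 stood at 16.6 to 20.4 CPM (counts scaled to the size of a library) in Cep120 KO and 13.7 to 18.7 in its controls, and Pkd1 at 23.9 to 36.4 in Pkd1 KO and 13.9 to 21.6 in its controls. For Pkd1, every Pkd1 KO library was above every Pkd1 control. These values do not check the labels, and why the RNA was not lower was not tested. Libraries stood apart in 3 ways. Pkd1 KO 3 held 912 TPM (a level corrected for gene length) summed over 8 adrenal markers, each of them at its highest there, against 9.63 to 19.2 in the other 11 libraries. Xist, made from the inactive X chromosome, was nearly absent (at most 0.325 CPM) from the 3 Pkd1 KO libraries, Cep120 KO 1 and Cep120 KO 2, and at least 50 CPM in the other 7. Pkd1 control 3 held both Xist (50 CPM) and Y-linked RNA (96.9 CPM). Less Y-linked RNA stood beside Xist in Cep120 control 1 (28.3 CPM), Cep120 control 2 (12) and Cep120 KO 3 (16.6). The remaining libraries with Xist held at most 0.0651. Sex and the KO label cannot be told apart within the Pkd1 line. Genes with a count numbered 30321 to 32740 in 6 libraries and 23544 to 25665 in the other 6, and the 3 Pkd1 KO libraries were all among the latter. The kidney markers Pax2, Pax8, Umod and Nphs1 were detected throughout, and the liver marker Alb was at most 7 CPM in any library.

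A handful of members made up most P450 RNA. On the TPM scale, which corrects for gene length and so allows genes to be compared, 5 members averaged over 100 TPM across the 12 libraries: Cyp4a10 (251 TPM), Cyp2j5 (251), Cyp4a14 (170), Cyp2d26 (153) and Cyp4a31 (123). Cyp2e1, an ethanol-oxidising enzyme, came next at 69.6 TPM, but at 38.8 TPM without Pkd1 KO 1, which held 408.9. Cyp39a1, an oxysterol hydroxylase, averaged 26.6 TPM, while 15 members averaged under 1 TPM. The order of the top genes depended on the group. Cyp2j5 and Cyp4a10 had 312 ± 10.2 and 290 ± 88.1 TPM in Cep120 controls (mean ± SD, n = 3) and 308 ± 3.80 and 296 ± 112.3 in Cep120 KO, gaps within the spread. In Pkd1 controls Cyp2j5 was the higher (328 ± 70.4 against 215 ± 25.6 TPM), and in Pkd1 KO Cyp4a10 was (205 ± 40.97 against 54.04 ± 15.02). Counts of Cyp4a10, Cyp4a31 and Cyp4a32 are uncertain among themselves, because their coding sequences are at least 96.0% identical over the part that aligns. The same holds for Cyp2a5 with Cyp2a4, Cyp2c69 with Cyp2c40, Cyp2d9 with Cyp2d11, and Cyp4f16 with Cyp4f37, each at least 93.4% identical.

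Summed over the 43 members, P450 RNA showed no clear gap between groups, while its make-up differed in Pkd1 KO. The sum was 1350 ± 238 TPM in Cep120 controls, 1370 ± 294 in Cep120 KO, 1170 ± 57.0 in Pkd1 controls and 1250 ± 218 in Pkd1 KO (mean ± SD, n = 3), so neither KO differed from its controls beyond the spread between libraries. A gap within the spread does not show that the sums were alike. Without Pkd1 KO 3, the 2 other Pkd1 KO libraries had 1073 and 1187 TPM. The latter is that of Pkd1 KO 1 and includes 408.9 TPM of Cyp2e1. The top 5 members held 78.4 to 82.9% of that sum in the 9 other libraries and 39.5, 64.3 and 51.9% in Pkd1 KO 1 to 3. Cyp2e1 held 34.4% in Pkd1 KO 1, and Cyp11a1 with Cyp11b1 19.9% in Pkd1 KO 3. The Cyp2j group took 25.4 to 37.0% of P450 TPM in Pkd1 controls and 6.76 to 9.62% in Pkd1 KO, and the Cyp4 group 39.7 to 49.6% and 41.4 to 63.1%.

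**Figure D1:**
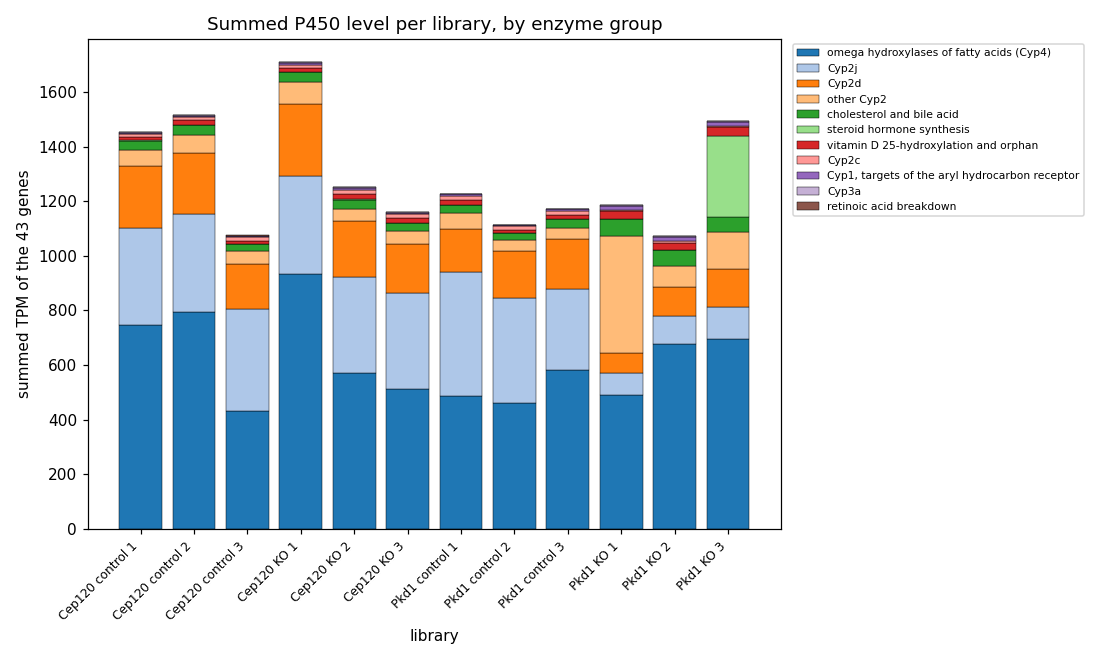
Summed level of the 43 P450 genes in each of the 12 libraries (vertical axis, TPM), stacked by enzyme group. Bars reach 1070 to 1710 TPM, the Cyp2j part is smallest in the 3 Pkd1 KO libraries, and the steroid synthesis part shows only in Pkd1 KO 3.

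Pkd1 KO was included in the study to set kidneys made cystic by the loss of a ciliary signalling protein beside those that lack Cep120. Among the members, 8 were lower and 16 higher in Pkd1 KO and 19 were not called (edgeR quasi-likelihood test, Benjamini-Hochberg adjusted p under 0.05 over all 19890 genes). Over all genes tested, 22.4% were called lower and 22.1% higher, beside 8 and 16 of 43 members, which is a description and not a test. The 16 include Cyp11b1, which became a member only through its counts in Pkd1 KO, and Cyp11a1, whose counts come mostly from 1 library. Without these genes 14 of 41 were higher and 8 lower. The members' median log2 fold change was 0.44 and that of all genes was -0.04. At least 2-fold, 7 members were lower and 12 higher, Cyp11a1 and Cyp11b1 among the 12, beside 13.2% and 9.90% of all genes. The 2 groups of 3 libraries did not overlap for 9 members that were lower and 17 that were higher, beside 25.5% and 27.4% of all genes. Cyp11a1 and Cyp11b1 are among the 17 too, and the median covers all 43 members.

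Several cell types' markers moved in the same libraries. All 12 proximal tubule markers were called lower in Pkd1 KO (median -2.86 on the log2 scale). Their summed level was 3640 to 5420 TPM in Pkd1 controls and 328 to 521 in Pkd1 KO. All 5 macrophage markers were called higher (62.4 to 268 TPM against 795 to 1180), as were 4 of 5 stromal markers (321 to 681 against 901 to 1570). In whole-kidney RNA, fewer cells of a type and less RNA per cell cannot be told apart, and the part of these cell types in each change below was not tested.

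**Figure D2:**
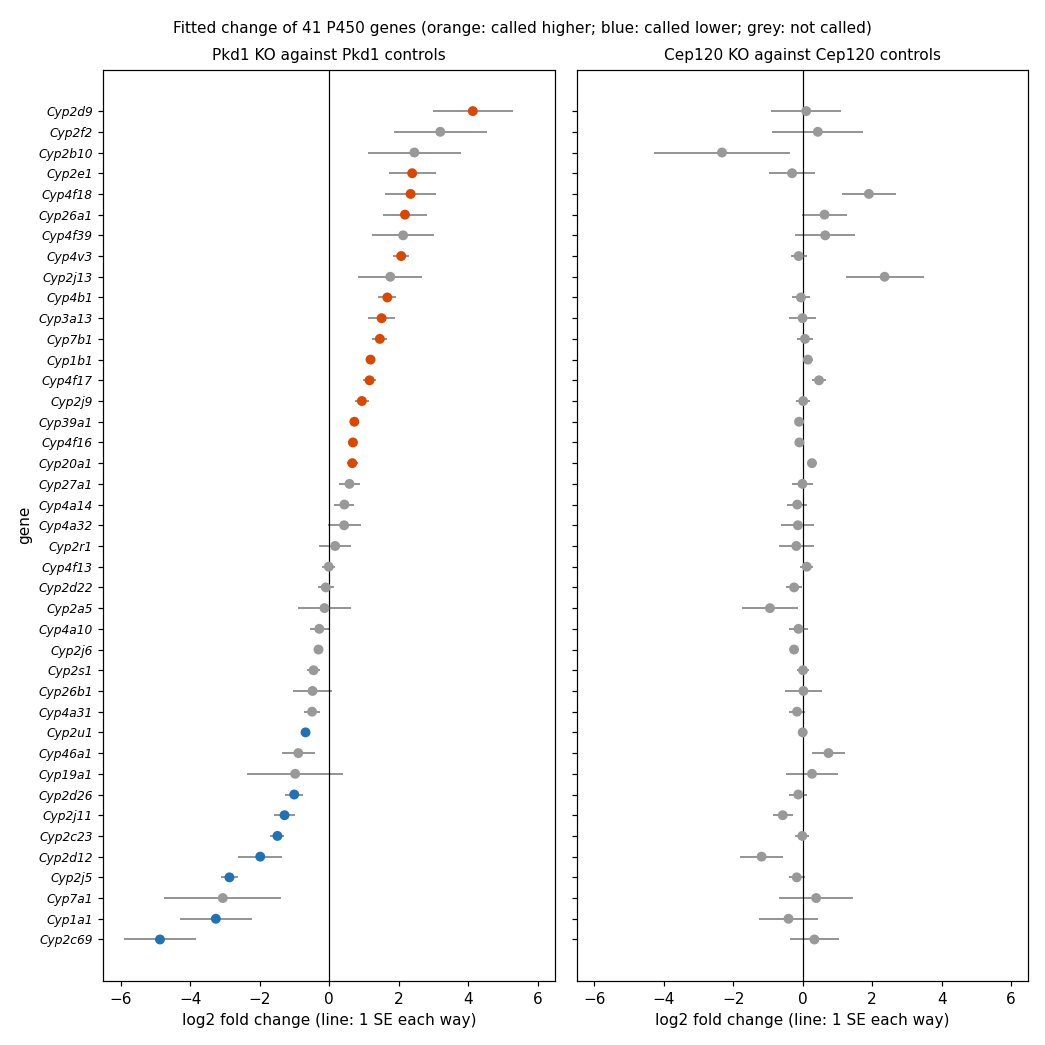
Fitted log2 fold change of 41 P450 genes with 1 SE each way, in Pkd1 KO (left) and Cep120 KO (right), genes in the same order; Cyp11a1 and Cyp11b1, whose values rest mostly on 1 library, are left out. Coloured points, called at an adjusted p under 0.05, appear on both sides of 0 in Pkd1 KO, and no point is coloured in Cep120 KO.

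The epoxygenases of the Cyp2j and Cyp2c groups held the largest loss among abundant members. Cyp2j5, an epoxygenase of mouse kidney, was at 771, 815 and 453 CPM in Pkd1 controls 1 to 3 and at 64.9, 99.1 and 114 CPM in Pkd1 KO 1 to 3. All 3 KO libraries lay far below all 3 controls, the lowest of which was control 3. Its fitted level was 7.33-fold lower (log2 fold change -2.87, SE 0.24, adjusted p = 2.77e-06). In the Cep120 line it was at 574, 582 and 667 CPM in controls and 556, 499 and 564 CPM in KO. On the TPM scale Cyp2j5 averaged 328 ± 70.4 TPM in Pkd1 controls and 54.04 ± 15.02 in Pkd1 KO (SD, n = 3).

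The 5 Cyp2j members lie next to each other in the genome, and they did not move together. Cyp2j11 was lower at 11.1, 18.5 and 18.8 CPM in Pkd1 KO against 49.99, 47.92 and 20.3 in controls (log2 fold change -1.29, SE 0.30, adjusted p = 0.00362), and its lowest control lay just above the highest KO library. Cyp2j9 was higher at 19.1, 17.9 and 16.5 CPM against 6.87, 9.24 and 11.8 (log2 fold change 0.94, SE 0.21, adjusted p = 0.0029), with no overlap. Cyp2j6 (51.6 to 62.1 CPM in Pkd1 KO, 57.1 to 75.2 in controls) and Cyp2j13 were not called (adjusted p = 0.0577 and 0.137), and the groups of each overlapped. Cyp2j13 was under 0.3 CPM in Pkd1 controls 1 and 2 and at 3.06 in control 3, while Pkd1 KO libraries held 2.74 to 6.03.

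The promoters of Cyp2j5 and Cyp2j9 are shown because these neighbours went in opposite directions. Each is the RefSeq window on GRCm38.p6 from 250 bases before to 50 after the gene's start, on the minus strand, at chr4:96664070-96664369 for Cyp2j5 and chr4:96591436-96591735 for Cyp2j9. Capitals mark matches, on either strand, to AGGTCA (bound by many nuclear receptors), TATAAA (the TATA box) or GCGTG (the core bound by the aryl hydrocarbon receptor).
Cyp2j5: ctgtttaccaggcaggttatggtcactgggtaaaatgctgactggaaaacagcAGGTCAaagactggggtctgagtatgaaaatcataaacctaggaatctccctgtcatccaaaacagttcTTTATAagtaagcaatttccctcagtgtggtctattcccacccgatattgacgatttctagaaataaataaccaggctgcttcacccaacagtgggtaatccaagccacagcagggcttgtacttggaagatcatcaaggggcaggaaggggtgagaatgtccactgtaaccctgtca
Cyp2j9: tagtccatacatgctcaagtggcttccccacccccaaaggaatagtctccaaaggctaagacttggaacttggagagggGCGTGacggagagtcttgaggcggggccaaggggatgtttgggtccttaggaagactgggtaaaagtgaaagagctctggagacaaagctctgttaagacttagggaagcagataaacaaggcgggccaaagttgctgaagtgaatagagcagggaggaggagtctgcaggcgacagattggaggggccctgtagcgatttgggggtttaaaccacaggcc
The Cyp2j5 window holds 1 AGGTCA and 1 TATAAA match, the latter on the other strand as TTTATA, and no GCGTG. The Cyp2j9 window holds 1 GCGTG and neither of the other letters. Windows were at hand for 31 of the 43 members. TATAAA was found in 35.5% of these and in 15.7% of the windows of all 27025 genes, AGGTCA in 16.1% and 18.1%, GTTAAT (letters of the Hnf1 site) in 16.1% and 8.24%, and GCGTG in 35.5% and 35.2%. A direct repeat of AGGTCA with 1 base between, as in sites of Ppara, was in no member's window and in 0.0481% of all. A match is a description of these letters and not a site.

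Both Cyp2c members were lower in Pkd1 KO, beside 22.4% of all genes. Cyp2c23, an arachidonic acid epoxygenase, was at 21.6, 26.8 and 18.5 CPM in Pkd1 controls and 6.67, 10.53 and 6.53 in Pkd1 KO. All 3 KO libraries were below all 3 controls, and in the Cep120 line the 6 libraries ranged from 16.8 to 23.1 CPM. The fitted log2 fold change was -1.49 (SE 0.20, adjusted p = 8.73e-05). Cyp2c69 had 36 counts over the 3 Pkd1 controls and 1 over the 3 Pkd1 KO libraries, 41.3-fold fewer for the libraries' size with a 95% exact counting interval of 6.96 to 1680 (adjusted p = 0.00228).

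Of the 11 omega hydroxylases of the Cyp4 families, 5 were higher in Pkd1 KO and none was lower, beside 22.1% and 22.4% of all genes. The 3 most abundant, all Cyp4a, were not called. Cyp4a10, which hydroxylates arachidonic acid and is a known target of Ppara in rodents, was at 363, 453 and 403 CPM in Pkd1 controls and 251, 386 and 363 in Pkd1 KO. The groups overlapped and the log2 fold change was -0.29 (SE 0.27, adjusted p = 0.402). Cyp4a14 and Cyp4a31 had log2 fold changes of 0.44 (SE 0.29, adjusted p = 0.237) and -0.49 (SE 0.23, adjusted p = 0.103). Cyp4a14 was at 250 to 312 CPM in Pkd1 controls and 284 to 444 in Pkd1 KO, and Cyp4a31 at 176 to 214 and 98.6 to 166. These values stand beside proximal tubule markers whose smallest fall on the log2 scale was -1.07 (Aqp1).

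Cyp4b1 and Cyp4v3 rose most clearly. Cyp4b1, an omega hydroxylase that also activates some foreign compounds, was at 21.1, 25.1 and 18.5 CPM in Pkd1 controls and 65.4, 78.9 and 61.5 in Pkd1 KO. Every KO library was above every control, and the fitted log2 fold change was 1.67 (SE 0.26, adjusted p = 0.000219). Cyp4b1 lies beside Cyp4a14, Cyp4a10, Cyp4a31 and Cyp4a32 in the genome, none of which was called. Cyp4v3, the mouse counterpart of a human fatty acid hydroxylase mutated in a retinal dystrophy, was at 5.28, 5.42 and 7.90 CPM in controls and 29.1, 24.6 and 24.6 in KO. The groups did not overlap, and the gene rose by 2.07 on the log2 scale (SE 0.24, adjusted p = 2.35e-05).

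In the Cyp4f cluster, whose enzymes hydroxylate long fatty acids and leukotrienes, 2 of 4 neighbours were called higher, beside 22.1% of all genes. Cyp4f17 was at 15.37, 14.67 and 20.03 CPM in Pkd1 controls and 40.96, 40.43 and 30.65 in Pkd1 KO (log2 fold change 1.16, SE 0.19, adjusted p = 0.000407). Cyp4f16 was at 15.37 to 18.71 and 26.3 to 27.9 CPM (log2 fold change 0.68, SE 0.12, adjusted p = 0.000457). Neither overlapped between groups, whereas Cyp4f13 was at 18.5 to 21.6 and 17.0 to 22.1 CPM with a log2 fold change of -0.01 (SE 0.18). Cyp4f39, with few counts, was at 0.05 to 0.29 CPM in Pkd1 controls and 0.64 to 0.79 in Pkd1 KO. Its groups did not overlap either, and it was not called (log2 fold change 2.13, SE 0.89, adjusted p = 0.0688). Cyp4f18, a leukotriene hydroxylase of myeloid cells, rose from 0.30 to 2.57 CPM in controls to 4.67 to 6.67 in Pkd1 KO (log2 fold change 2.34, SE 0.74, adjusted p = 0.0219). Its highest control was Pkd1 control 3, and all 5 macrophage markers rose in the same comparison. The call was lost without Pkd1 control 1, Pkd1 control 2 or Pkd1 KO 2 (adjusted p = 0.0716, 0.0734 and 0.0579).

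**Figure D3:**
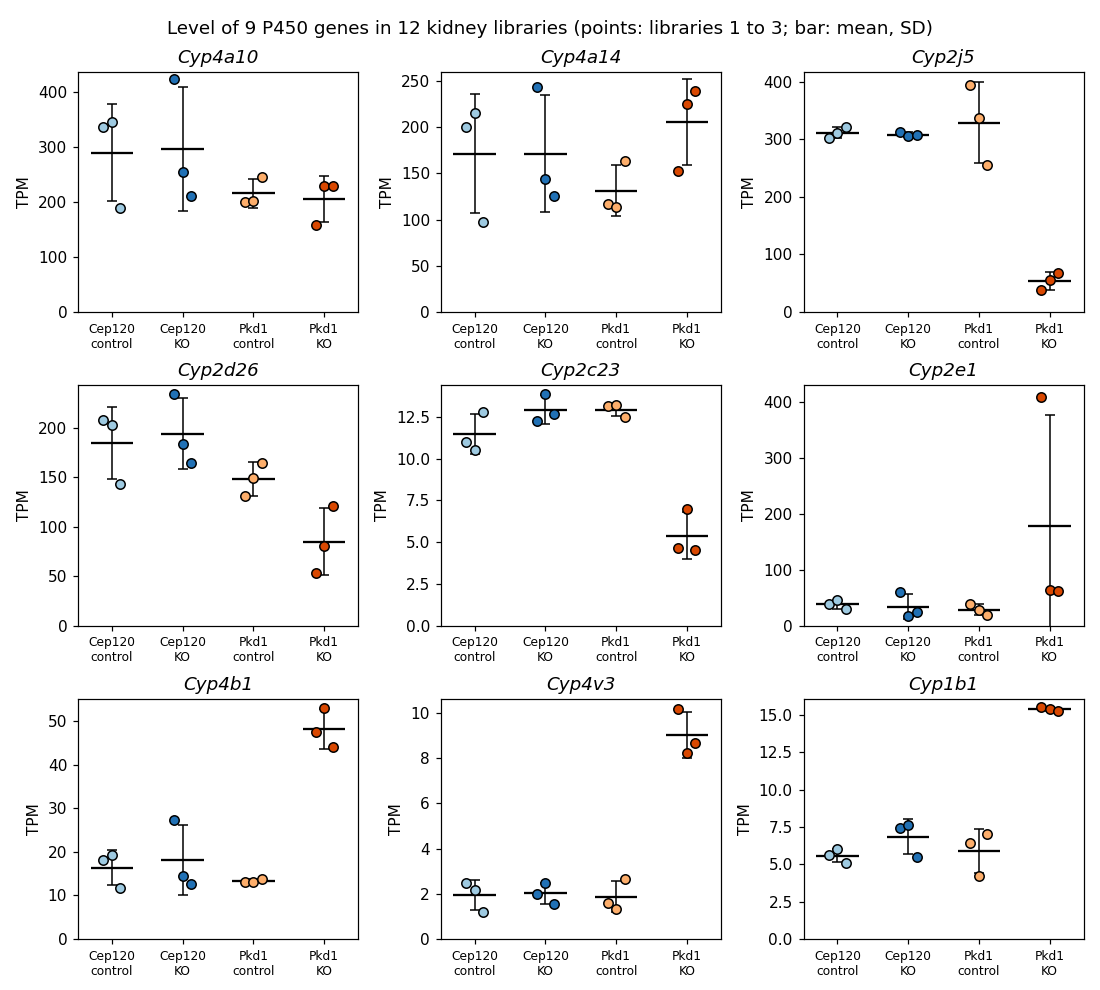
Level in TPM (vertical axis, from 0) of 9 P450 genes in the 12 libraries, with the mean and SD of each group of 3; the SD bar of Cyp2e1 in Pkd1 KO reaches below 0 and is cut there. Cyp2j5 and Cyp2c23 are lowest and Cyp4b1, Cyp4v3 and Cyp1b1 highest in the 3 Pkd1 KO libraries, while Cyp4a10 and Cyp4a14 overlap between groups and Cyp2e1 is high in 1 library.

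The 4 Cyp2d members moved in both directions. Cyp2d26 and Cyp2d12 were lower, Cyp2d9 was higher and Cyp2d22 was not called, beside 22.4% of all genes lower and 22.1% higher. Cyp2d26 was at 188, 263 and 210 CPM in Pkd1 controls and 66.6, 108 and 154 in Pkd1 KO. The highest KO library lay below the lowest control, and the log2 fold change was -1.01 (SE 0.26, adjusted p = 0.00688). Cyp2d12, at 0.11 to 0.90 CPM in KO and 0.79 to 2.18 in controls, overlapped between groups (log2 fold change -1.99, SE 0.64, adjusted p = 0.0227), and its call was lost when Pkd1 control 1 or 2 or Pkd1 KO 1 or 3 was left out (adjusted p = 0.0712, 0.0644, 0.0801 and 0.0635). Cyp2d9 was at 0.03, 0 and 0.23 CPM in controls and 1.35, 3.12 and 0.47 in KO (log2 fold change 4.13, SE 1.14, adjusted p = 0.0106), and its call was lost without Pkd1 KO 2 (adjusted p = 0.0581). No Cyp2d call was kept with either of the sex-linked terms given below (edgeR, adjusted p = 0.063 to 0.474). Within the Pkd1 line sex and the KO label cannot be told apart, and the part of sex in these changes was not tested.

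Cyp2e1 rose in a way that 1 library dominated. It was at 58.6, 55.0 and 26.3 CPM in Pkd1 controls and at 557, 90.4 and 83.8 CPM in Pkd1 KO. All 3 KO libraries were above the controls, and Pkd1 KO 1 stood far above the others. The log2 fold change was 2.39 (SE 0.68, adjusted p = 0.0126), and without Pkd1 KO 1 it was 0.88 (adjusted p = 0.139). Summed adipose markers were 1700 TPM in Pkd1 KO 1, 85.7 in KO 2 and 883 in KO 3, and 513 to 1090 in Pkd1 controls, while hepatocyte markers were 24.8 to 39.6 TPM in KO and 28.2 to 40.9 in controls. The part of adipose tissue in the Cyp2e1 value was not tested.

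Among the other Cyp2 genes, Cyp2u1, a fatty acid hydroxylase, was lower at 15.6, 15.2 and 16.1 CPM against 28.7, 23.6 and 22.9 (log2 fold change -0.68, SE 0.12, adjusted p = 0.000481), with no overlap. The other 4 (Cyp2s1, Cyp2f2, Cyp2a5 and Cyp2b10) form 1 neighbourhood in the genome and none was called. Cyp3a13, the only Cyp3a member, rose from 1.81 to 2.80 CPM in controls to 5.79 to 6.80 in Pkd1 KO (log2 fold change 1.51, SE 0.39, adjusted p = 0.00743).

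The 2 Cyp1 members, both classic targets of the aryl hydrocarbon receptor (Ahr), went in opposite directions. Cyp1b1, which oxidises oestrogens and aromatic pollutants, was at 25.8, 18.7 and 24.4 CPM in Pkd1 controls and 52.0, 54.2 and 51.1 in Pkd1 KO. The 3 KO libraries differed little among themselves and none came near the controls (log2 fold change 1.19, SE 0.14, adjusted p = 2.21e-05). In the Cep120 line Cyp1b1 was at 20.7, 22.9 and 21.3 CPM in controls and 26.4, 25.3 and 20.4 in KO. Cyp1a1 was near the limit of detection, at 0.88, 0.90 and 0.27 CPM in Pkd1 controls and 0, 0.19 and 0 in Pkd1 KO (log2 fold change -3.26, SE 1.04, adjusted p = 0.0218). That call was lost when Pkd1 KO 1 or 3 or Pkd1 control 1 or 2 was left out (adjusted p = 0.0691, 0.0639, 0.0572 and 0.059). Ahr itself was not called (log2 fold change 0.37, SE 0.17, adjusted p = 0.097).

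The promoters of this pair are shown because the same receptor is known to act on both. They are the RefSeq windows on GRCm38.p6 at chr9:57697363-57697662 (plus strand) for Cyp1a1 and chr17:79715012-79715311 (minus strand) for Cyp1b1, with capitals as above.
Cyp1a1: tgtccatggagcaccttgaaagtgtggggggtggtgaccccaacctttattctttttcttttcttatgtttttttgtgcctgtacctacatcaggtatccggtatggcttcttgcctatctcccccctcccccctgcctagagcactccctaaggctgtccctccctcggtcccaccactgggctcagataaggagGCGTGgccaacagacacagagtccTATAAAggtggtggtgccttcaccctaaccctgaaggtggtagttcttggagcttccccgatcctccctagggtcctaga
Cyp1b1: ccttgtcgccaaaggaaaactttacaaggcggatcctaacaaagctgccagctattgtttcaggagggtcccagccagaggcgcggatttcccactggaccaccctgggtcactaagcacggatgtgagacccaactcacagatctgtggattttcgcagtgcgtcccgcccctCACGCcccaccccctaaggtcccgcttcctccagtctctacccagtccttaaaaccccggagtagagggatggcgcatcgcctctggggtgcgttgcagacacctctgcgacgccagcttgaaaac
Each window holds 1 GCGTG match, which in Cyp1b1 reads CACGC on the strand shown, and the Cyp1a1 window also holds 1 TATAAA.

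Of the 5 members that act on cholesterol and bile acids, 2 rose, beside 22.1% of all genes. Cyp39a1 was at 44.8, 47.0 and 38.3 CPM in Pkd1 controls and 73.1, 71.6 and 70.0 in Pkd1 KO (log2 fold change 0.72, SE 0.11, adjusted p = 0.000185). Cyp7b1, another oxysterol hydroxylase, was at 3.65, 4.92 and 3.36 CPM and 11.9, 10.7 and 10.1 CPM (log2 fold change 1.46, SE 0.22, adjusted p = 0.000172). For both, every KO library was above every control. Cyp27a1, Cyp46a1 and Cyp7a1 were not called, with adjusted p = 0.125, 0.151 and 0.154. Cyp7a1, the rate-limiting enzyme of bile acid synthesis in liver, averaged 0.08 TPM, the lowest of the 43.

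The steroid synthesis genes stood out in 1 library. Cyp11a1, which makes pregnenolone from cholesterol, was at 0.37, 0.16 and 194 CPM in Pkd1 KO 1 to 3 and at most 0.54 in the other 9 libraries. Cyp11b1, which makes corticosterone, was at 0.71, 0.90 and 438 CPM in Pkd1 KO, 0 in all 6 controls and at most 0.10 in Cep120 KO. Pkd1 KO 3 thus held nearly all reads of both. Both were called (adjusted p = 0.00625 and 0.0167). Without Pkd1 KO 3 the Cyp11a1 call was lost (log2 fold change 1.56, adjusted p = 0.205). Cyp11b1 reached 10 counts in Pkd1 KO libraries alone, so that its membership rests on the group where it is high and its call supports nothing. No fold is given for it, since it was at 0 in all its controls. The adrenal markers of the same library were high, with Star at 269 CPM against at most 3.12 elsewhere and Hsd3b1 at 674 against at most 0.40. Cyp21a1 and Cyp11b2, which are outside the members with 1 library at 10 counts, had 5896 and 1082 counts there and at most 7 and 0 elsewhere. Cyp2f2 was at 83.2 CPM in Pkd1 KO 3 and at most 5.21 in the other 11 libraries (log2 fold change 3.20, adjusted p = 0.0686), and without that library its log2 fold change was -1.15. Leaving out Pkd1 KO 1 or 2 instead brought it past the threshold (adjusted p = 0.0412 and 0.00706). How adrenal tissue bears on these values was not tested. Cyp19a1, aromatase, was not called.

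**Figure D4:**
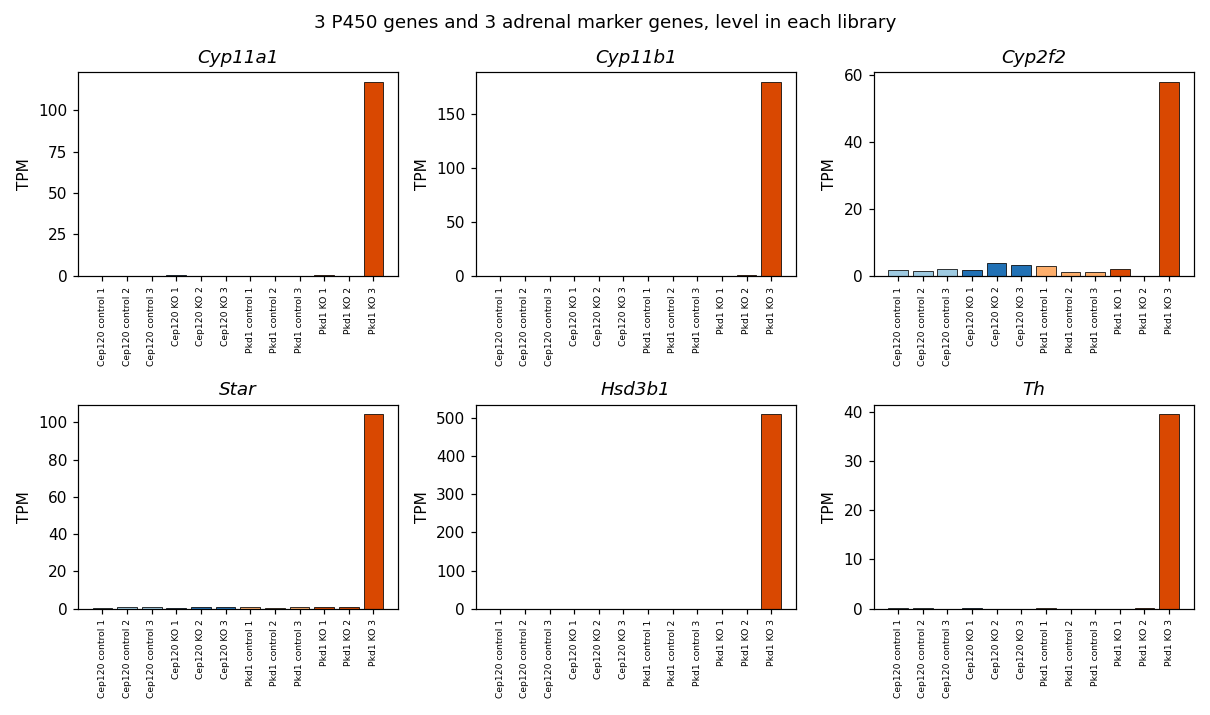
Level in TPM (vertical axis) in each of the 12 libraries of the P450 genes Cyp11a1, Cyp11b1 and Cyp2f2 and the adrenal markers Star, Hsd3b1 and Th. All 6 are highest in Pkd1 KO 3, where Hsd3b1 reaches 510 TPM and Star 104.

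Of the remaining members, Cyp26a1, which breaks down retinoic acid, rose from 0.10 to 0.45 CPM in Pkd1 controls to 0.72 to 2.13 in Pkd1 KO (log2 fold change 2.18, SE 0.64, adjusted p = 0.0148). Without Pkd1 control 2 or Pkd1 KO 2 that call was lost (adjusted p = 0.0552 and 0.112). Cyp26b1 was not called. Cyp20a1, an orphan enzyme, rose from 31.6, 24.0 and 23.9 to 42.5, 37.3 and 46.2 CPM (log2 fold change 0.66, SE 0.16, adjusted p = 0.00399). Cyp2r1, a vitamin D hydroxylase, was not called (log2 fold change 0.17, SE 0.47).

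Calls were also fitted with sex-linked RNA as a term. All 3 Pkd1 KO libraries lack Xist and all 3 Pkd1 controls have it, so within that line the Xist term and the KO label cannot be told apart, and a lost call does not show a smaller change. Only the Cep120 KO group holds libraries with and without Xist. The size of the Xist term therefore rests on Cep120 KO 3, which has it, against Cep120 KO 1 and 2. A kept call is for that reason not one freed of sex. With Xist absent or present as a term in the fit, 6 of the 24 calls were kept: Cyp2j5, Cyp2c23, Cyp1b1, Cyp39a1, Cyp3a13 and Cyp4v3. With the share of Y-linked RNA as a term, 11 of the 24 were kept, among them those 6, and Cyp2s1 was added. Fitted changes moved to different extents: with the Xist term the log2 fold change was 1.36 for Cyp7b1 (adjusted p = 0.0526), 1.14 for Cyp4f17 (adjusted p = 0.067) and 0.72 for Cyp20a1 (adjusted p = 0.138), near their values without it. It was 1.009 for Cyp4b1 (adjusted p = 0.147) and 0.75 for Cyp4f18 (adjusted p = 0.751), further from theirs.

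**Figure D5:**
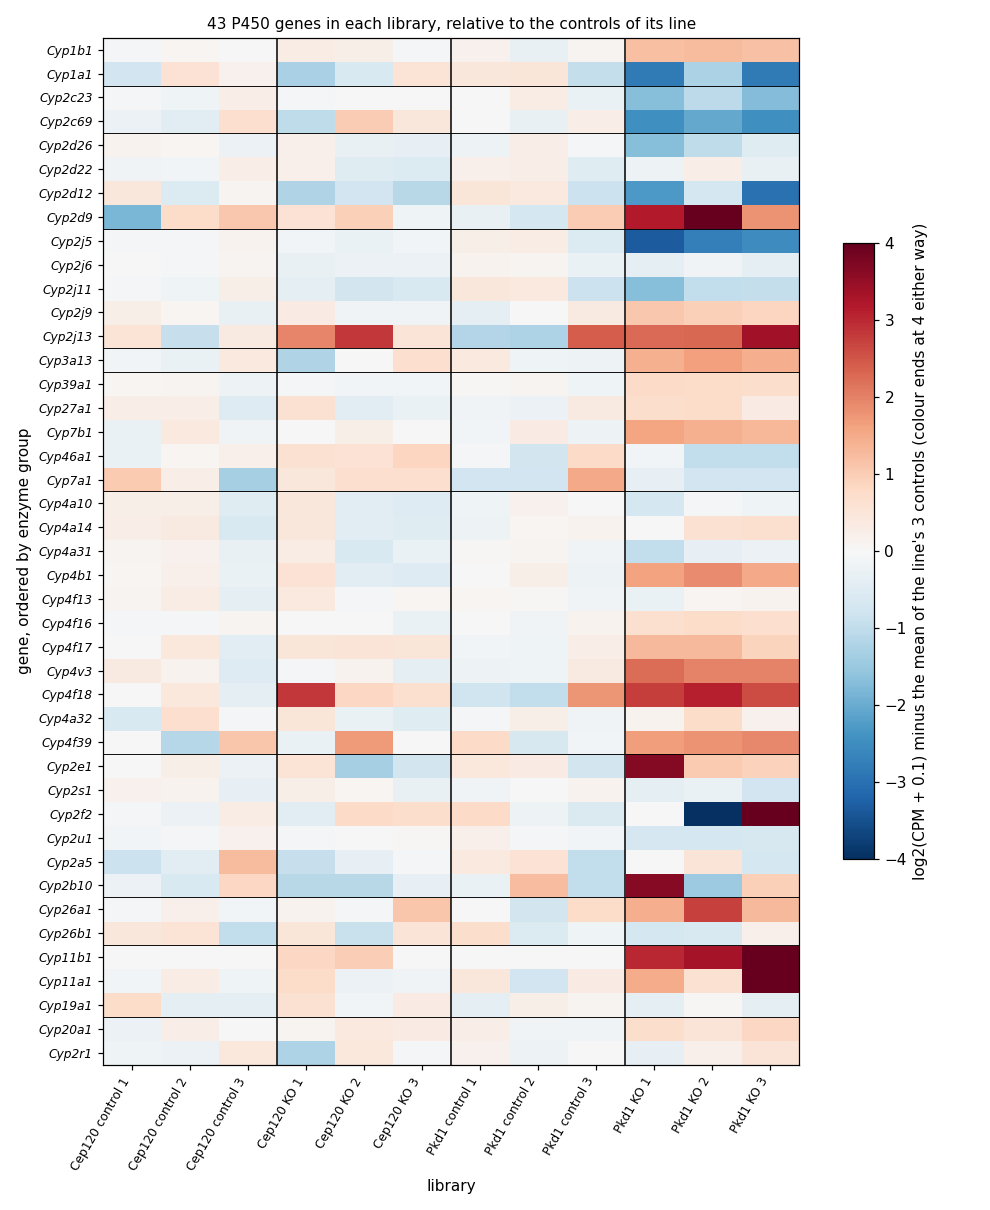
Each of the 43 P450 genes (rows, ordered by enzyme group) in each of the 12 libraries (columns), as log2(CPM + 0.1) minus the mean of the 3 controls of the line, with colour ending at 4 either way. Blue and red rows appear across all 3 Pkd1 KO libraries, Cep120 KO shows few rows that keep 1 colour, and Cyp2f2 has opposite colours in Pkd1 KO 2 and 3.

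Cep120 KO against Cep120 controls was the study's main comparison, on fibrotic and cystic kidneys. No member was called, and neither was any gene (0% of 19890, edgeR). At an unadjusted p under 0.05 there were 2 members and 1201 genes (6.04%), and DESeq2 called 21 genes and no member. The members' median log2 fold change was -0.004 and that of all genes was 0.012. Changes were within 2-fold for 38 of 43 members, and among the 26 with at least 10 counts in all libraries none exceeded 0.57 on the log2 scale. The 8 with the smallest p were Cyp4f17, Cyp4f18, Cyp2j13, Cyp2j6, Cyp2j11, Cyp2d12, Cyp20a1 and Cyp46a1, all with an adjusted p of 0.757.

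Cyp4f17 was at 15.6, 20.8 and 11.8 CPM in Cep120 controls and 22.1, 22.6 and 22.0 in KO (log2 fold change 0.47, SE 0.19, adjusted p = 0.757 by edgeR). The groups did not overlap and the difference was not called. Cyp4f18 was at 0.41 to 0.77 CPM in controls and 4.54, 1.07 and 0.92 in KO (log2 fold change 1.91, SE 0.79, adjusted p = 0.757), so the highest value came from Cep120 KO 1. Cyp2j11 and Cyp2d12 had negative log2 fold changes (-0.57, SE 0.29, and -1.18, SE 0.62) in Cep120 KO, where they were also not called. For the abundant members the estimates were small against their errors: Cyp4a10 had a log2 fold change of -0.12 (SE 0.27), Cyp2j5 -0.17 (SE 0.22) and Cyp2d26 -0.13 (SE 0.26). An estimate that misses the threshold does not show that the groups were alike.

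The difference between the Pkd1 and the Cep120 effects was tested directly, as an interaction in the same fit. It was called for 12 members, with the Pkd1 effect higher for 8 and lower for 4, beside 13.9% and 14.2% of all genes. The lower 4 were Cyp2j5, Cyp2c23, Cyp2u1 and Cyp2c69. The higher 8 were Cyp4v3, Cyp1b1, Cyp39a1, Cyp4b1, Cyp4f16, Cyp7b1, Cyp2j9 and Cyp2e1. Cyp4f17 and Cyp4f18, whose estimates were above 0 in both lines, were not called in this test (adjusted p = 0.0746 and 0.787), nor were Cyp2j11 and Cyp2d12 (adjusted p = 0.209 and 0.521), whose estimates were below 0 in both. For Cyp2e1 the difference was 2.69 (SE 0.93, adjusted p = 0.0475), and its call held only when Cep120 KO 1, Pkd1 KO 2 or Pkd1 KO 3 was the library left out (adjusted p = 0.0567 to 0.167 for the other 9). Cyp2j9 was called in 10 of 24 alternative fits, and the other 10 members in each fit in which they were tested, all at an adjusted p under 0.05.

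Between the controls of the 2 lines no member and no gene was called (0% of 19890, edgeR). At an unadjusted p under 0.05 there were 2 members, Cyp19a1 and Cyp2j13, and 834 genes. Cyp19a1 was at 0.55, 0.20 and 0.20 CPM in Cep120 controls and 0, 0.05 and 0.04 in Pkd1 controls, with no overlap but few counts (adjusted p = 0.979). The next smallest p were those of Cyp2d9 and Cyp2r1 (adjusted p = 0.979 for both).

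Genes that serve P450 enzymes were read from lists of partners in the same Pkd1 comparison, in which 22.4% of all genes were called lower and 22.1% higher. Of 8 electron donors 1 was higher and 3 lower, and Por was at 143, 145 and 97.8 CPM in Pkd1 controls and 83.1, 81.7 and 78.7 in KO (log2 fold change -0.66, SE 0.18, adjusted p = 0.0101). Cyb5a, which passes electrons to some P450 enzymes, fell by 0.77 on the log2 scale (adjusted p = 0.00129), and Cyb5r3, which reduces it, rose by 1.09 (adjusted p = 8.34e-05). Of 8 heme synthesis enzymes 2 were lower: Cpox (log2 fold change -2.06) and Uros (-1.65), each with no overlap between groups.

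Of 15 regulators of P450 genes 6 were lower and 2 higher. Hnf4a, a transcription factor of proximal tubule and liver, was at 169, 169 and 129 CPM in controls and 40.7, 54.4 and 50.2 in Pkd1 KO (log2 fold change -1.69, SE 0.15, adjusted p = 3.64e-06). The xenobiotic receptors Nr1i2 and Nr1i3 had log2 fold changes of -1.23 and -1.82 (adjusted p = 0.0138 and 0.000482). Ppara, at 26.8 to 37.9 CPM in controls and 20.2 to 33.3 in KO, was not called (log2 fold change -0.41, SE 0.21, adjusted p = 0.129).

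Of 8 enzymes that act beside or after P450 enzymes on lipid mediators 5 were higher and 2 lower. Ephx2, the hydrolase that opens the epoxides made by Cyp2c and Cyp2j enzymes, was at 129, 124 and 77.5 CPM in Pkd1 controls and 49.4, 44.3 and 42.6 in KO (log2 fold change -1.28, SE 0.18, adjusted p = 0.000129). Ptgs1 and Alox5, which take arachidonic acid into prostaglandins and leukotrienes, rose by 0.68 and 3.41 on the log2 scale (adjusted p = 0.000202 and 0.000755). Of 8 P450 genes outside the naming rule, 5 were tested: Ptgis (log2 fold change 2.14), Cyp4a12a (3.16) and Cyp4a12b (2.23) were higher and Cyp51 (-0.79) and Tbxas1 (-0.64) lower. Within the Pkd1 line sex and the KO label cannot be told apart, and the part of sex in these 5 changes was not tested. No gene of these 5 lists was called in Cep120 KO, where no gene at all was called (0% of 19890, edgeR), so this says nothing particular to the lists.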

How the data were processed

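RNA of whole kidney was sequenced in 12 libraries after cDNA synthesis with a SMARTer Ultra Low kit, per the labels' protocols. Per the submitters' processing notes, mm9, Salmon 0.8.2, STAR 2.5.1a and featureCounts 1.4.6-p5 were used, but their roles are not stated, nor is strand. The authors' deposited gene table holds estimated counts, which are not whole for 21.6% of genes and were rounded here, and 287 repeated lines were dropped. Deposited TPM values, made by the authors, were used for levels between genes, and the deposited moderated log2 CPM only as an alternative. Other deposited tables were not used here. Gene coordinates of the files are not given because the builds differ.

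Counts were tested in R 4.3.3 with edgeR 4.0.16: filterByExpr, TMM scaling, 1 quasi-likelihood fit of 12 libraries in 4 groups and Benjamini-Hochberg adjustment over 19890 genes at 0.05. CPM is scaled by TMM, and standard errors come from the fold change and its test. Depth of 23070688 to 31837958 counts limits weak genes, and intervals cover counting error only. Coding sequences (GENCODE M21) were compared with blastn 2.17.0. Neighbours have at most 5 other protein-coding genes between them.

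Members, lists and rules were chosen with earlier results of these data known. Named were, by smallest p, up to 12 members called lower and 12 higher in Pkd1 KO, 8 in Cep120 KO, 8 for the difference and 4 between controls, the member with the highest TPM of each enzyme group, 8 chosen partner genes and 2 more of each partner list. Other genes named were chosen after their values were seen. A partner gene that the rule names is not reported here. Alternatives were DESeq2 1.42.0, voom (limma 3.58.1), scaling by upper quartile or RLE, no filter, 5 CPM in 3 libraries, 1 line alone, replicate block, log2 CPM input, libraries left out, terms for detected genes (split at 28000), Xist and Y-linked RNA, and other thresholds and member rules.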

Additional observations from a re-analysis of the deposited data

Results flagged for a closer look

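The change in Pkd1 KO differed from that in Cep120 KO for 12 members when the difference was tested itself (edgeR interaction, adjusted over all genes), and the 8 with the smallest p are given here. On the log2 scale the Pkd1 effect minus the Cep120 effect was -2.70 for Cyp2j5 (adjusted p = 0.000121) and -1.48 for Cyp2c23 (adjusted p = 0.0023), both epoxygenases. It was 2.19 for Cyp4v3 (adjusted p = 0.000549), 1.72 for Cyp4b1 (adjusted p = 0.0039) and 0.78 for Cyp4f16 (adjusted p = 0.00423), all omega hydroxylases. It was 1.04 for Cyp1b1 (adjusted p = 0.0018), 0.83 for Cyp39a1 (adjusted p = 0.00197) and 1.39 for Cyp7b1 (adjusted p = 0.00549). All 3 Pkd1 KO libraries lay on the same side of all 3 Pkd1 controls for each of the 8. The 8 were picked by p from these same values, so that separation adds no support. Over all genes, the Pkd1 groups did not overlap for 25.5% that were lower and 27.4% that were higher.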

How the results depend on the processing

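With Xist as a term, which within the Pkd1 line cannot be told apart from the KO label, 6 members (4 higher, 2 lower) and 2002 genes were called, and with the Y-linked share 12 members (8 higher, 4 lower) and 4213 genes, against 24 and 8839. Without a filter, 3 members and 344 genes were called in Cep120 KO, 22 members and 6397 genes for the difference, and 1 member (Cyp2j13) and 248 genes between controls. DESeq2 called 21 genes in Cep120 KO. Without both replicate 3 controls, 1 gene was called in Cep120 KO and 1 member (Cyp7a1) and 371 genes between controls, and with the detected-gene term 1 gene between controls. At least 2-fold, 4588 genes were called for Pkd1 and 3514 for the difference, and 2751 for the difference at 0.01. With 1 library left out, genes called numbered 0 to 2 in Cep120 KO and 0 to 4 between controls. Deposited log2 CPM moved the median of all genes in Pkd1 KO from -0.043 to 0.059. Cyp2j13 reversed in Cep120 KO with the Y-linked share (-0.21) and between controls without Pkd1 control 3 (-0.265) and without both replicate 3 controls (-0.066), and ranged to 3.07 there with 1 library left out. The sum of CPM gave KO over control ratios of 0.91 and 0.93 (Cep120, Pkd1), and that of TPM 1.02 and 1.07. With the threshold left at an adjusted p under 0.05, 6 of 24 Pkd1 calls were kept in all alternative fits in which they were tested. Those 6 are the ones kept with the Xist term. Of 12 difference calls, 10 were kept in this way. At least 2-fold, 19 members were called for Pkd1, Cyp11a1 and Cyp11b1 among them, and 8 for the difference. At an adjusted p under 0.01 there were 17 and 10, with 5938 genes called for Pkd1. Scaling alone (RLE, upper quartile) added 2 members lower in Pkd1 KO and turned no call, with 8826 and 8874 genes called. The causes were not tested.

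Whether replicate numbers pair the libraries is not stated. Deviations of same-numbered libraries correlated at 0.178, -0.054 and 0.148 in the Cep120 line and -0.096, -0.043 and -0.136 in the Pkd1 line. Pairs with unlike numbers ranged from -0.2 to 0.11 and from -0.05 to 0.129. With 3 libraries a group, these values cannot settle whether a pairing exists. With a replicate block, 25 members and 7804 genes were called in Pkd1 KO, 11 and 4363 for the difference, and 0 of either in Cep120 KO. Dropping members with a near-identical coding sequence left 21 of 24 Pkd1 calls, an alternative chosen after seeing the data, as protein sequences were not used here. Low counts limit the 17 members under 10 counts in some library.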

Other observations

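Cyp2j13, a member with few counts, followed neither line nor genotype. Its 6 highest values were 0.92 and 1.79 CPM in Cep120 KO 1 and 2, 3.06 in Pkd1 control 3, and 2.74, 2.80 and 6.03 in the Pkd1 KO libraries, and the other 6 libraries held at most 0.29. Those 6 libraries also had the highest Y-linked RNA, 96.9 to 147 CPM against at most 28.3 in the rest. The pattern was noticed in these data and was not tested.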
